A study of Mus musculus with 24 samples.

Results

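The liver mRNAs of 10 apolipoprotein genes were followed through livers of furan-treated and control mice: Apoa1, Apoa2, Apoa4, Apoa5, Apob, Apoc1, Apoc2, Apoc3, Apoe and Apoh. They were taken by symbol from a table of read counts per gene, in which they are 10 of 24015 genes, and all 10 passed the filter on low counts in every comparison. Apolipoproteins are the protein coats of lipoprotein particles, which carry triglyceride and cholesterol through blood, and the liver is their main source. Apob is the scaffold on which the liver builds very-low-density lipoprotein, Apoa1 and Apoa2 are the main proteins of high-density lipoprotein, and Apoe is the ligand by which remnant particles are taken up. Apoc2 is the cofactor that lipoprotein lipase needs, Apoc3 restrains clearance of triglyceride-rich particles, Apoa5 promotes it, and Apoh is a plasma protein that binds phospholipid.

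All mice were female B6C3F1, a hybrid strain, with an age of 5 to 6 weeks in the labels. Furan mice were gavaged with furan at 8 mg/kg body weight in corn oil for 21 days and control mice with corn oil alone, with livers collected 4 h after dosing ended. Every liver gave 3 pieces, of which 1 was snap-frozen and the others were fixed in formalin for 18 h or for 3 weeks and embedded in paraffin (FFPE, formalin-fixed paraffin-embedded). Polyadenylated RNA was sequenced, and libraries of 3 furan and 3 control frozen pieces and of 4 furan and 4 control pieces of each FFPE kind were analysed here. The furan animals were numbers 41 to 44 and the control animals 02, 03, 04 and 06, and the frozen pieces of furan animal 42 and control animal 03 were not analysed here.

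Total counts lay between 33101755 and 58048387 in frozen libraries, 16269854 and 22494012 in FFPE 18 h libraries and 3666173 and 11780691 in FFPE 3 wk libraries. RNA integrity numbers were above 8.9 in frozen RNA and 1.3 to 2.4 in FFPE RNA, per the labels. Counts of Rn45s, the ribosomal RNA precursor, were at most 0.520% of the total in frozen libraries and 4.85% to 37.3% in FFPE libraries, the highest being the FFPE 18 h library of control animal 06. Albumin (Alb), the main secreted product of hepatocytes, was between 53773 and 124282 CPM (counts scaled to library size) in all 22 libraries. Markers of intestine, the other tissue that secretes lipoproteins, were low in sum: 10 of them totalled 23.6 to 29.1 CPM in furan and 36.1 to 43.8 CPM in control frozen livers and up to 155.5 CPM in FFPE pieces. Most of this was Fabp2, at 16.3 to 23.3 CPM in furan and 29.4 to 38.2 CPM in control frozen livers, while Cdx2 and Sis had 0 counts in every group. The part of intestinal markers in the apolipoprotein values was not tested. Macrophages also make Apoe; 14 macrophage markers summed to 396 to 497 CPM in furan and 379 to 961 CPM in control frozen livers, the highest being control animal 04, none of the 14 passed the furan test in any kind of piece, and their part in the Apoe values was not tested. The 3 furan comparisons use pieces of the same livers and are not independent of each other. In bulk tissue, fewer cells of a type and less RNA per cell cannot be told apart.

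In fresh-frozen liver 2 of the 10 genes passed the furan test, where 15.7% of all genes did. Apoc2 mRNA was 1.97 times as high in furan as in control livers, and Apoh mRNA was lower, at 0.804 of the control level. In FFPE 18 h pieces of the same livers Apoc2 rose and Apoa5 fell, where 8.39% of all genes passed. In FFPE 3 wk pieces Apoa5 fell, where 0.821% of all genes passed, and the other 9 genes, Apoc2 among them, missed the threshold. Tests were edgeR quasi-likelihood tests over all genes with Benjamini-Hochberg adjustment, and a gene passed at an adjusted p under 0.05.

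The promoters of the 3 genes that passed a furan test in the main fits are shown. The calls of Apoa5 and Apoh depended on the settings and libraries used, and other genes passed under some alternatives, as given below. Each run is the RefSeq window on mouse build GRCm38.p6 from 250 bases before to 50 bases after the start of transcription, printed 5′ to 3′ on the strand of the gene. Apoc2 is at chr7:19677892-19678191 on the minus strand, Apoa5 at chr9:46268383-46268682 and Apoh at chr11:108395047-108395346 on the plus strand. Capitals mark matches to 5 motifs searched on both strands: the TATA box TATAAA, the HNF4 site CAAAGTCCA, the nuclear receptor half-site AGGTCA, the AP-1 site TGANTCA and the antioxidant response core TGACNNNGC.
Apoc2: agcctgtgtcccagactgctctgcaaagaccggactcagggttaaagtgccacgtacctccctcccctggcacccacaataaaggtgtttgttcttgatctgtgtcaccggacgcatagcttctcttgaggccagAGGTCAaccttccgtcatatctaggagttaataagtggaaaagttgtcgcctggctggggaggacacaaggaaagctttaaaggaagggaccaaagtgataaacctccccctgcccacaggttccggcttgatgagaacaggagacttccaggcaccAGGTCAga
Apoa5: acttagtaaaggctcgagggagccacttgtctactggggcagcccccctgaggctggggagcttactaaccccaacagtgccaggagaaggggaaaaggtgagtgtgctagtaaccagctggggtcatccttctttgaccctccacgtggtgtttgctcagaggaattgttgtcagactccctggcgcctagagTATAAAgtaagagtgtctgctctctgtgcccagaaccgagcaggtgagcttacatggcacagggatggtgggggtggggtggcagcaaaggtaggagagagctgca
Apoh: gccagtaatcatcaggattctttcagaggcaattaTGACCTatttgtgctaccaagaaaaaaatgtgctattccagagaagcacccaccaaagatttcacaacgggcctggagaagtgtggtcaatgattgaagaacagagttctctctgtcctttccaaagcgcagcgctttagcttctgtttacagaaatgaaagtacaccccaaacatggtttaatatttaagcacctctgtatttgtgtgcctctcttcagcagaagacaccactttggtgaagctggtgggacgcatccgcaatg
The Apoc2 window held AGGTCA at -115 and at +43 from the start and no TATAAA. The Apoh window held AGGTCA on the opposite strand, read as TGACCT, at -215. The Apoa5 window held TATAAA at -56. Of all 32851 windows of this length, 16.3% hold AGGTCA, 13.6% TATAAA, 12.4% TGACNNNGC, 7.81% TGANTCA and 0.475% CAAAGTCCA. The AP-1, HNF4 and antioxidant response letters were in none of the 3 windows. Windows were at hand for 8 of the 10 genes, not for Apoc1 and Apoc3.

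Apoc2, which lets lipoprotein lipase act on circulating triglyceride, was measured at 103, 111 and 116 CPM in furan frozen livers, against 60.7, 54.0 and 54.6 CPM in control frozen livers. Every furan library was above every control library, with group means of 109.9 ± 6.87 and 56.4 ± 3.71 CPM (SD, n = 3 each). The log2 difference was 0.98 ± 0.08 (SE), with an adjusted p of 0.00067 in edgeR's test. It was the smallest adjusted p among the 10 genes. Of all 13794 genes tested, 8.21% were higher and 7.47% lower. In FFPE 18 h pieces Apoc2 was at 989, 971, 1123 and 1094 CPM in furan livers, against 588, 599, 534 and 562 CPM in control livers. The groups again did not overlap, and the log2 difference was 0.88 ± 0.07 (adjusted p = 2.2e-05, edgeR).

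In FFPE 3 wk pieces Apoc2 was at 609, 554, 828 and 618 CPM in furan livers, against 340, 376, 422 and 562 CPM in control livers. The lowest furan value (animal 42) lay below the highest control value (animal 06), and the log2 difference of 0.66 ± 0.15 did not pass (adjusted p = 0.054, edgeR). The difference passed without control animal 06 (0.80, adjusted p = 0.0088), with DESeq2 (0.65, adjusted p = 0.0015) and in 1 edgeR model of all 6 groups (0.63, adjusted p = 0.0020). The log2 furan response of Apoc2 in FFPE 18 h pieces minus that in frozen pieces was -0.09 ± 0.11, and in FFPE 3 wk minus frozen it was -0.30 ± 0.21. Neither difference passed (unadjusted p = 0.44 and 0.18, edgeR).

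**Figure D1:**
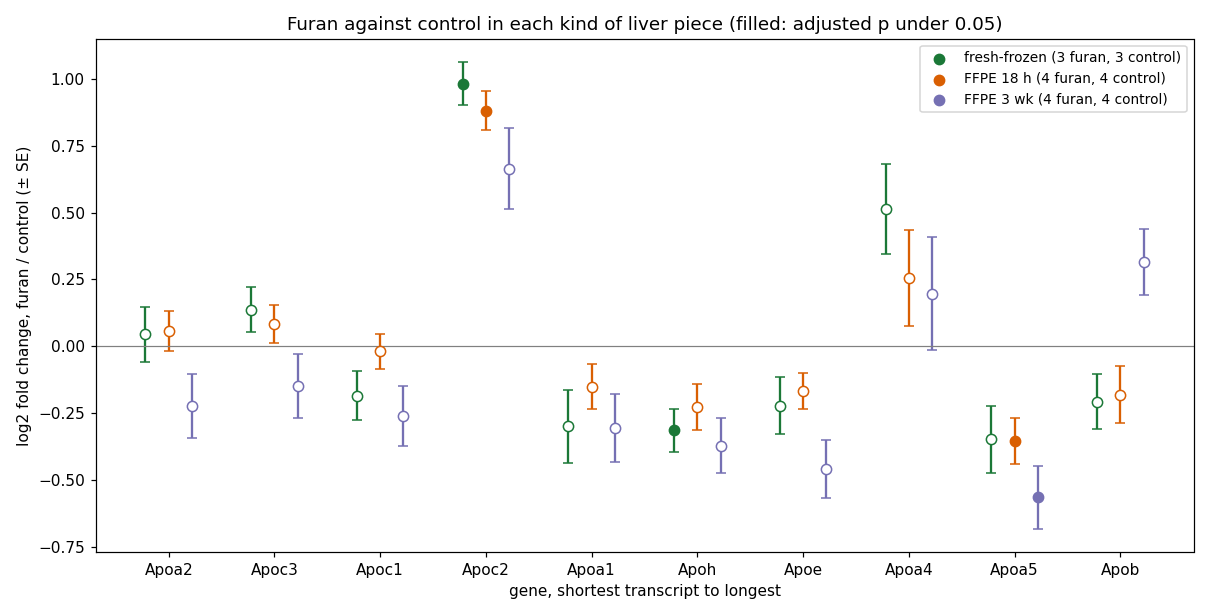
Log2 fold change of each apolipoprotein mRNA, furan over control, with its standard error (vertical axis), for the 3 kinds of liver piece; genes run from the shortest transcript to the longest and filled points have an adjusted p under 0.05. Apoc2 sits at 0.98, 0.88 and 0.66, apart from the other genes, and Apoa5 is below 0 in all 3 kinds of piece.

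Apoc2 lies next to Apoc4, a minor apolipoprotein gene, in a cluster with Apoe and Apoc1. Apoc4 was not higher in furan livers: its means were 115 CPM in furan and 138 CPM in control frozen livers (log2 -0.24 ± 0.09, adjusted p = 0.10, edgeR), and in FFPE 18 h pieces it fell, with means of 1204 CPM in furan and 1466 CPM in control livers (log2 -0.27 ± 0.07, adjusted p = 0.024, edgeR). Clptm1 and Tomm40, the genes on either side of the cluster, had log2 values of 0.04 ± 0.06 and 0.07 ± 0.13 in frozen livers and did not pass. The annotation used here (GENCODE M21) has a read-through transcript over Apoc4 and Apoc2, and the library kit does not mark strand, so reads of that transcript cannot be told apart from those of the single genes. By the distance between profiles over the means of the 6 groups, the genes most like Apoc2 among 9589 were Fam25c (root mean square difference 0.21 on the log2 scale), Gm3219 (0.28) and Nr2c2ap (0.29). All were low in frozen livers: Fam25c at 8.0 CPM in furan and 5.0 CPM in control livers, Gm3219 at 6.7 and 5.2, and Nr2c2ap at 0.38 and 0.23. Those of Nr2c2ap lie below the 0.5 CPM added before taking logs.

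Apoh, the phospholipid-binding plasma protein also called beta-2-glycoprotein I, was at 1424, 1342 and 1359 CPM in furan frozen livers, against 1779, 1683 and 1733 CPM in control frozen livers. The groups did not overlap, and the log2 difference was -0.31 ± 0.08 (adjusted p = 0.034, edgeR). The call was lost without any 1 library: leaving out any 1 of the 6 gave -0.34 to -0.28 with adjusted p between 0.058 and 0.12 (furan 41, 0.058; furan 43, 0.12; furan 44, 0.10; control 02, 0.080; control 04, 0.063; control 06, 0.070). It was also lost in the model of all 6 groups (-0.32, adjusted p = 0.19) and with thinned counts (-0.29, adjusted p = 0.060). In FFPE 18 h pieces Apoh averaged 2181 ± 196 CPM in furan and 2572 ± 171 CPM in control livers (SD, n = 4 each), a log2 difference of -0.23 ± 0.09 that did not pass (adjusted p = 0.125, edgeR) except without control animal 06 (-0.28, adjusted p = 0.034) or furan animal 41 (-0.30, adjusted p = 0.039). The FFPE 3 wk averages were 1047 ± 108 CPM in furan and 1400 ± 145 CPM in control livers (SD, n = 4 each). Those groups did not overlap either, yet the log2 difference of -0.37 ± 0.10 did not pass (adjusted p = 0.12, edgeR). It passed in the edgeR model of all 6 groups (-0.40, adjusted p = 0.0042) and with DESeq2 (-0.38, adjusted p = 0.0062).

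Apoa5, a low-abundance plasma protein that speeds triglyceride clearance, was at 1655, 1347, 1429 and 1435 CPM in furan FFPE 18 h pieces, against 1740, 1860, 1881 and 2074 CPM in control pieces. All furan values were below all control values, and the log2 difference was -0.35 ± 0.09 (adjusted p = 0.022, edgeR). In FFPE 3 wk pieces it was at 1404, 1137, 1366 and 1143 CPM in furan livers, against 1494, 1966, 2133 and 2132 CPM in control livers, again with no overlap (log2 -0.56 ± 0.12, adjusted p = 0.038, edgeR). In frozen livers it was at 1619, 1260 and 1307 CPM in furan livers, against 1581, 1832 and 1985 CPM in control livers. Furan animal 41 lay above control animal 02 there, and the log2 difference of -0.35 ± 0.13 did not pass (adjusted p = 0.10, edgeR). The FFPE 18 h call was lost without control 04 (adjusted p = 0.057) or furan 42, 43 or 44 (0.058, 0.075 and 0.069) with total-count scaling (log2 -0.23, adjusted p = 0.66) and in the model of all 6 groups (-0.36, adjusted p = 0.16). The FFPE 3 wk call was lost without control 03 or 04 (adjusted p = 0.10 and 0.14) or furan 41, 42, 43 or 44 (0.060, 0.13, 0.083 and 0.17) and with total-count scaling (log2 -0.54, adjusted p = 0.059).

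Apoa4, made by liver and intestine and released with triglyceride-rich particles, was at 398, 352 and 362 CPM in furan frozen livers, against 326, 197 and 264 CPM in control frozen livers. The ranges were apart, but the log2 difference of 0.51 ± 0.17 did not pass (adjusted p = 0.074, edgeR); it passed without control animal 02 (0.70, adjusted p = 0.026) with DESeq2 (0.51, adjusted p = 0.011), with total-count scaling (0.60, adjusted p = 0.032) and with thinned counts (0.58, adjusted p = 0.039). In the FFPE pieces furan animal 42, which has no frozen library here, was the lowest furan sample: 263 CPM in FFPE 18 h, against 430, 437 and 491 CPM in the other furan pieces, and 113 CPM in FFPE 3 wk, against 227, 266 and 208 CPM. The log2 values with all animals were 0.26 ± 0.18 and 0.20 ± 0.21, and without animal 42 they were 0.42 and 0.40. None of these passed (adjusted p = 0.43 and 0.86 with all animals, 0.11 and 0.48 without it, edgeR). Apoa4 overlaps an antisense gene in the annotation, as Apoa5 does, and without strand the reads of each pair cannot be told apart.

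The remaining genes did not pass in any kind of piece. Apoe, the remnant ligand, was at 13873, 12188 and 13120 CPM in furan frozen livers, against 15565, 15396 and 15322 CPM in control frozen livers. The ranges did not overlap, as also for Apob, Apoa4, Apoc2 and Apoh, which makes 5 of the 10 genes against 37.6% of all genes; the log2 difference of Apoe was -0.22 ± 0.11 (adjusted p = 0.19, edgeR). Its log2 difference was -0.17 ± 0.07 in FFPE 18 h pieces and -0.46 ± 0.11 in FFPE 3 wk pieces (adjusted p = 0.15 and 0.062, edgeR). With DESeq2 Apoe passed in frozen and FFPE 3 wk pieces (adjusted p = 0.037 and 0.0027). So did Apoa5 in frozen (0.032) and Apoh in FFPE 3 wk pieces (0.0062). In the edgeR model of all 6 groups Apoe passed in FFPE 3 wk pieces (-0.49, adjusted p = 0.0016). It passed there also without a filter on low counts (adjusted p = 0.035) and with robust dispersions (adjusted p = 0.049). Control animal 04, with the highest macrophage markers, was at 15396 CPM of Apoe, between the other control frozen livers. Apoa1 and Apoc1 had log2 values of -0.30 ± 0.14 and -0.19 ± 0.09 in frozen livers, and Apoa2 and Apoc3, like Apoc2 short transcripts, of 0.04 ± 0.10 and 0.14 ± 0.08.

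Apob was at 7117, 7791 and 7326 CPM in furan frozen livers, against 9224, 8488 and 8286 CPM in control frozen livers, a log2 difference of -0.21 ± 0.10 that did not pass (adjusted p = 0.21, edgeR). Its log2 value in FFPE 3 wk pieces was 0.32 ± 0.12 (adjusted p = 0.33, edgeR). The response in FFPE 3 wk minus that in frozen pieces was 0.54 ± 0.17 and did not pass (adjusted p = 0.81, edgeR). None of the 10 genes passed this test of the difference in either FFPE kind. Over all genes none passed it in edgeR, with 455 genes for FFPE 18 h and 590 for FFPE 3 wk at an unadjusted p under 0.05, while DESeq2 called 1 and 19, a model of all 6 groups 0 and 19, and the animal as a replicate block 2 and 0. Groups did not overlap for 3 of the 10 genes in FFPE 18 h (Apoc2, Apoa5 and Apoe), against 15.4% of all genes, and for 2 in FFPE 3 wk (Apoa5 and Apoh), against 8.81%. The median log2 furan value of the 10 genes was -0.20 in frozen pieces, -0.08 after 18 h and -0.24 after 3 weeks of fixation, beside -0.01, -0.01 and 0.02 over all genes tested. Over 16 hepatocyte-secreted proteins with no lipoprotein role it was -0.18, -0.06 and -0.19, so the shift was not particular to apolipoproteins.

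**Figure D2:**
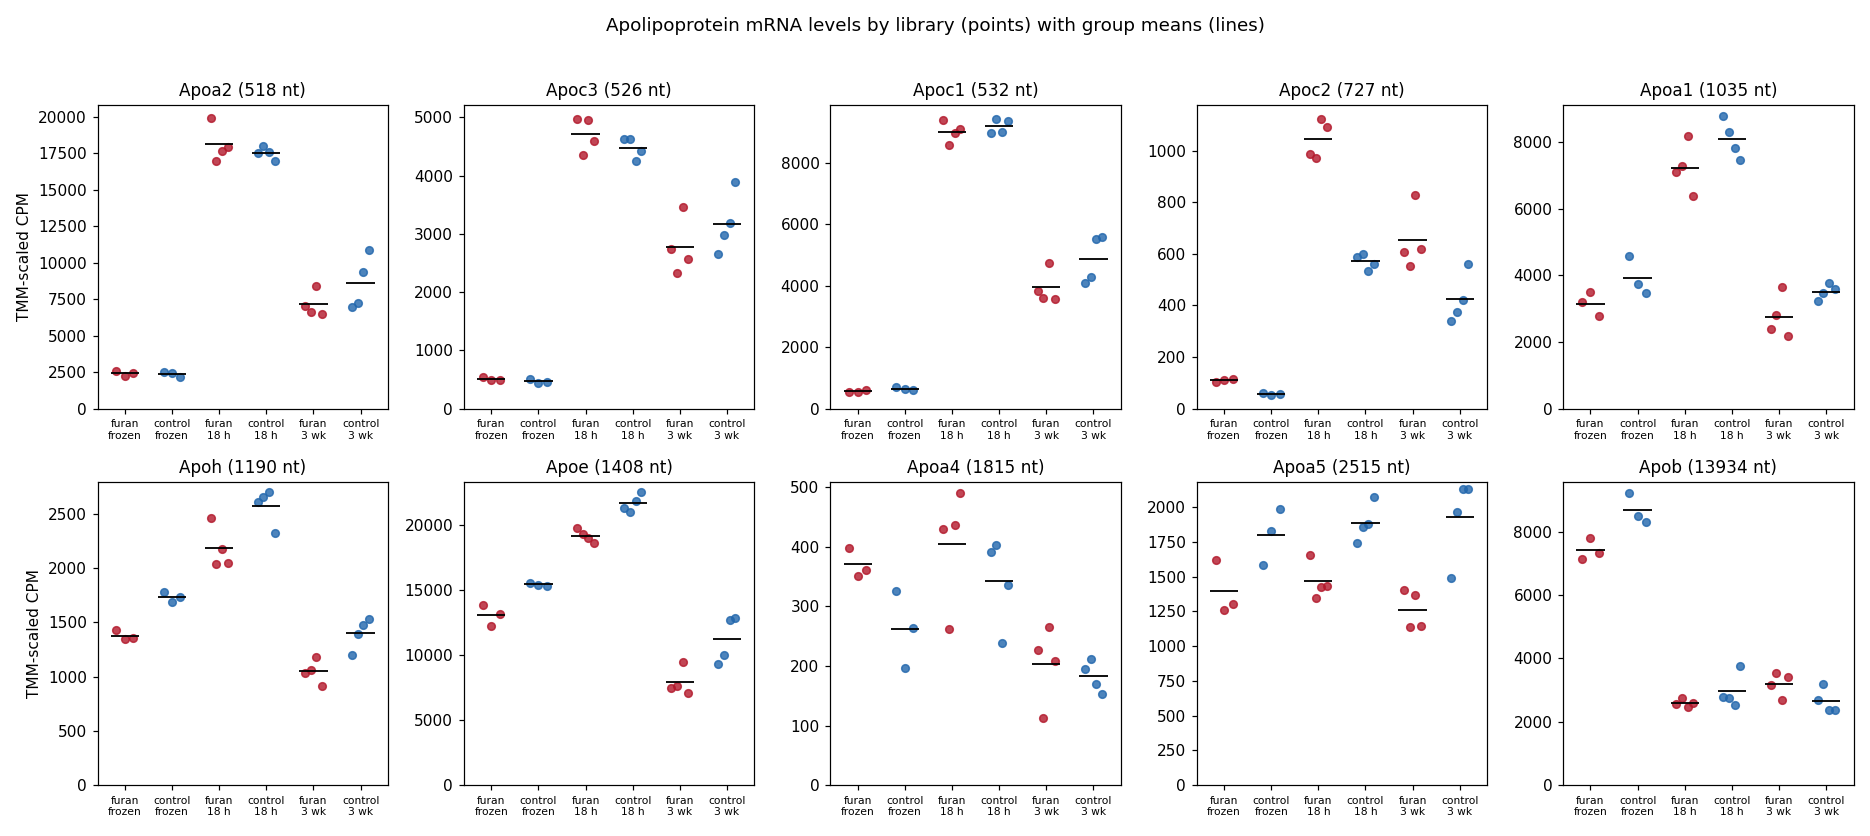
TMM-scaled CPM (vertical axis, from 0) of each apolipoprotein mRNA in every library, by treatment and kind of piece; points are libraries, lines are group means, and panels run from the shortest transcript to the longest. Apoa2, Apoc3, Apoc1 and Apoc2 are lowest in the frozen pieces and highest in FFPE 18 h, and Apob is highest in the frozen pieces.

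Genes that act with the apolipoproteins were counted by role. Of 13 plasma lipases and transfer proteins, Lipc (hepatic lipase) and Pon1 (paraoxonase, carried on high-density lipoprotein) fell in frozen livers and none rose, a share near the 15.7% of all genes called in either direction. Lipc averaged 157 CPM in furan and 257 CPM in control frozen livers (log2 -0.69 ± 0.09, adjusted p = 0.0042, edgeR), and fell also in FFPE 18 h and FFPE 3 wk pieces (-0.63 and -0.79, adjusted p = 0.00046 and 0.029). Pon1 fell in frozen and FFPE 18 h pieces (-0.45 and -0.30, adjusted p = 0.012 and 0.022). Lpl, the lipase that Apoc2 serves, averaged 44.6 CPM in furan and 36.2 CPM in control frozen livers and did not pass (log2 0.32 ± 0.23, adjusted p = 0.39).

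Of 17 assembly genes, Dgat2, which makes the triglyceride loaded onto Apob, fell in all 3 kinds of piece (log2 -0.60 in frozen livers, then -0.45 and -0.66 in the 18 h and 3 wk fixed pieces, adjusted p = 0.022, 0.0075 and 0.029, edgeR), and Soat2, a cholesterol-esterifying enzyme, fell in FFPE 18 h pieces (-0.61, adjusted p = 0.0048). Mttp, which transfers lipid onto Apob, did not pass in any of them (0.05 ± 0.10, 0.11 ± 0.10 and 0.18 ± 0.13). None of the sterol export genes passed in any kind of piece (7 tested in frozen, 6 in each FFPE kind).

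Of 30 transcription factors linked to apolipoprotein genes, Rxra, the partner of many nuclear receptors, fell in frozen livers (-0.31 ± 0.08, adjusted p = 0.035, edgeR). In FFPE 18 h pieces Hnf4a, a hepatocyte nuclear receptor, rose (0.34 ± 0.07, adjusted p = 0.012) and Srebf1, a regulator of fatty acid synthesis, fell (-0.49 ± 0.12, adjusted p = 0.022). None of 29 passed in FFPE 3 wk pieces. Of 14 other apolipoprotein genes none passed in frozen livers and Apol9b fell in FFPE 3 wk pieces (-1.24, adjusted p = 0.0096, edgeR); in FFPE 18 h pieces Saa1 and Saa2, acute-phase proteins of high-density lipoprotein, rose (0.86 and 0.72, adjusted p = 0.0014 and 0.033) and Apoc4, Apol7a and Apol9b fell. Of 16 hepatocyte-secreted proteins with no lipoprotein role none passed in any kind of piece. None of 10 stellate cell markers passed in any kind of piece. Of 10 intestinal markers 3 could be tested in frozen livers, and Fabp2, a fatty acid binding protein, fell (19.6 CPM in furan and 33.4 CPM in control livers, adjusted p = 0.015, edgeR). Of 8 sinusoidal endothelial markers 6 fell in frozen livers, where 7.47% of all genes were lower. In FFPE 18 h pieces 2 of the 8 fell, where 8.39% of all genes passed in either direction. The summed level of the 8 was 264 to 327 CPM in furan and 405 to 407 CPM in control frozen livers. The part of this shift in the apolipoprotein values was not tested.

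Between fixed and frozen pieces the short apolipoprotein transcripts differed by the most. In control livers 8 of the 10 genes passed between FFPE 18 h and frozen pieces, a share near the 68% of all 13034 genes that passed. Apoc1, Apoc2, Apoc3 and Apoa2, with transcripts of 532, 727, 526 and 518 nucleotides, were higher in FFPE 18 h by 3.95, 3.45, 3.37 and 3.00 on the log2 scale, that of Apoc1 being 15.5-fold. Apoa1, Apoh and Apoe (1035, 1190 and 1408 nucleotides) were higher by 2.23-, 1.61- and 1.52-fold, and Apob, with 13934 nucleotides, fell to 0.369 of the frozen level. Fixation, extraction kit, amount of tissue, depth and RNA integrity changed together between the kinds of piece and cannot be told apart.

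Apoc1, a small protein that inhibits lipoprotein uptake, had the largest log2 value of the 10 genes. It was at 8955, 9422, 9007 and 9367 CPM in control FFPE 18 h pieces, against 688, 638 and 604 CPM in control frozen pieces (log2 3.95 ± 0.10, adjusted p = 6.7e-09, edgeR). Within the 3 control animals with both pieces the log2 ratio was 3.70 to 3.95. Apob was at 2784, 2762, 2516 and 3762 CPM in control FFPE 18 h pieces, against 9224, 8488 and 8286 CPM in control frozen pieces, with no overlap (log2 -1.44 ± 0.13, adjusted p = 6.8e-06, edgeR). Apoa4 and Apoa5 (1815 and 2515 nucleotides) had log2 values of 0.49 ± 0.20 and 0.19 ± 0.10 and did not pass without regard to animal (adjusted p = 0.055 and 0.12). With the animal as a block both passed (0.41 and 0.20, adjusted p = 0.00016 and 0.032, edgeR). That fit left out control 03, which has no frozen library here. Apoa4 passed also with DESeq2 (0.48, adjusted p = 0.036), with a filter at 5 CPM (0.56, adjusted p = 0.029) and with thinned counts (0.60, adjusted p = 0.011). It passed too without control 04 in FFPE 18 h (0.62, adjusted p = 0.016) or without control 02 in frozen (0.67, adjusted p = 0.020). Apoa5 passed also with the filter at 5 CPM (0.26, adjusted p = 0.041).

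In furan livers the same 8 genes passed in the same directions, again a share near that of all genes, of which 73% of 13411 passed. The FFPE 18 h over frozen log2 values were 4.11, 3.35, 3.31 and 3.01 for Apoc1, Apoc2, Apoc3 and Apoa2, 1.30, 0.77 and 0.65 for Apoa1, Apoh and Apoe, and -1.42 for Apob. Apoa4 and Apoa5 were at 0.23 ± 0.17 and 0.17 ± 0.10 (adjusted p = 0.23 and 0.16). Both passed with the animal as a block (0.38 and 0.20, adjusted p = 5.3e-08 and 7.1e-05, edgeR). That fit also left out furan animal 42, which has no frozen library here. With animal 42 left out of FFPE 18 h and no block, Apoa4 was likewise at 0.38 and passed (adjusted p = 0.0018). Apoa5 also passed without furan animal 41 in frozen (0.28, adjusted p = 0.022). It passed too with a filter at 5 CPM (0.26, adjusted p = 0.031) and with thinned counts (0.22, adjusted p = 0.049). Scaled by total counts alone, which gave a median of all genes of -0.27 in control livers, beside 0.02 with TMM, Apoe and Apoh did not pass in control livers (0.31 and 0.41, adjusted p = 0.24 and 0.13); genes higher and lower were then 2895 and 4925, beside 4463 and 4404.

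**Figure D3:**
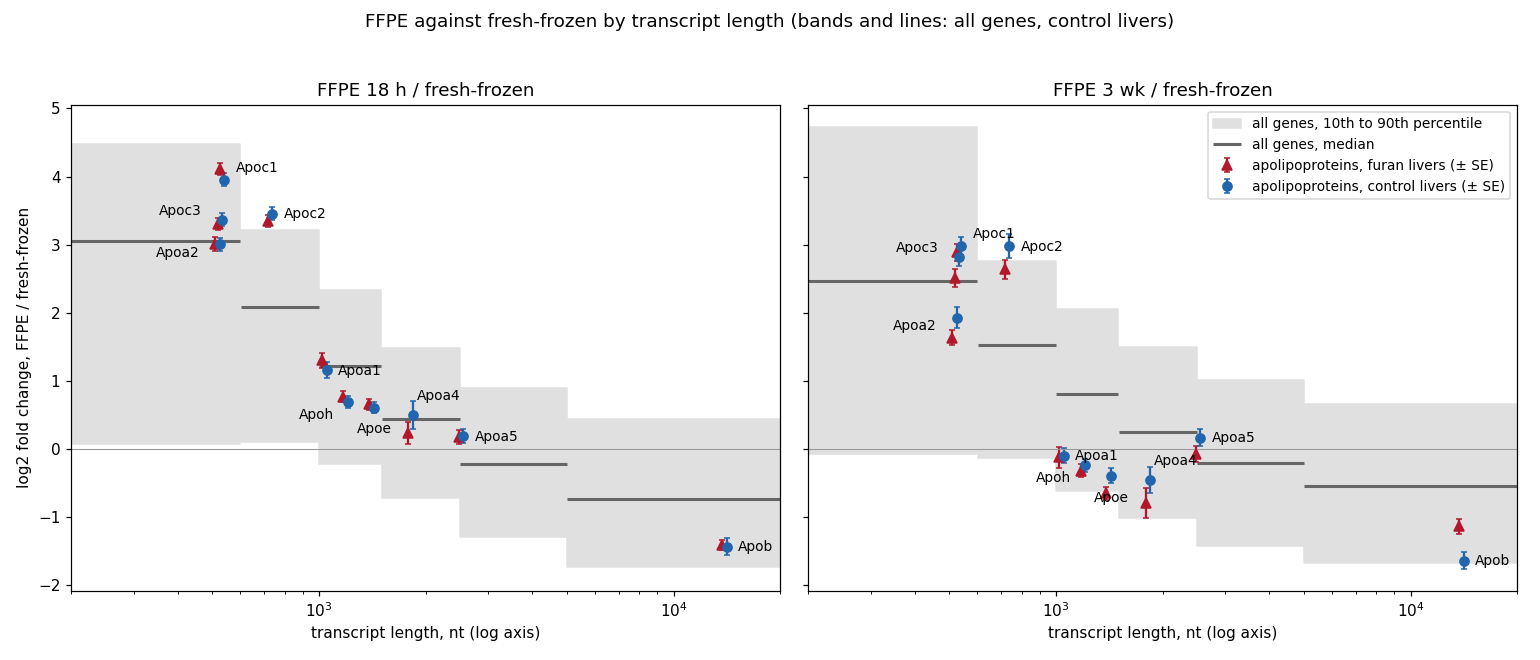
Log2 fold change of the 10 apolipoprotein mRNAs, FFPE over fresh-frozen with standard errors (vertical axis), against transcript length in nucleotides (log axis), in furan livers (triangles) and control livers (circles); grey bands and lines give the 10th to 90th percentile and the median of all genes of each length class in control livers. The 4 transcripts under 1000 nucleotides lie between 3.00 and 4.11 in FFPE 18 h, and Apob lies below 0 in both panels.

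Over all genes, too, the log2 value was lower in each longer class. In control livers the median log2 value of FFPE 18 h over frozen was 3.05 for genes up to 600 nucleotides, 2.09 to 1000, 1.21 to 1500, 0.43 to 2500, -0.23 to 5000 and -0.74 above. Apoa2 exceeded 46.7% of the genes in its class, Apoa1 47.1%, Apoa4 53.7% and Apoc3 61.1%. Apoc2 exceeded 94.4% of the genes of 601 to 1000 nucleotides and Apoc1 81.7% of the shortest class, while Apoe exceeded 22.3%, Apoh 25.5% and Apob 16.8% of theirs. Across the 10 genes Spearman's rho of length with the log2 value was -0.89 for FFPE 18 h and -0.77 for FFPE 3 wk, in furan and in control livers alike, given as a description of genes measured in the same libraries. The genes most like Apoc1 in profile were 1100001G20Rik, Ndufa3 and Ndufa7 (root mean square differences of 0.092, 0.095 and 0.10), with transcripts of 434, 515 and 528 nucleotides.

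After 3 weeks of fixation the 4 short transcripts were above the frozen level. In control livers 6 of 10 genes passed, where 26.2% of 12145 genes did: Apoc1, Apoc2, Apoc3 and Apoa2 were higher than in frozen pieces by 7.90-, 7.86-, 7.04- and 3.79-fold, and Apob and Apoe were lower, at 0.320 and 0.758 of the frozen level. Apoe was at 9271, 10001, 12682 and 12868 CPM in control FFPE 3 wk pieces, against 15565, 15396 and 15322 CPM in control frozen pieces (log2 -0.40 ± 0.11, adjusted p = 0.025, edgeR). That call was lost without control 02 or 03 in FFPE 3 wk (adjusted p = 0.091 and 0.073) and without control 02, 04 or 06 in frozen (0.081, 0.083 and 0.061), and with total-count scaling (-0.32, adjusted p = 0.053). Apoa1, Apoa5 and Apoh were at -0.10 ± 0.11, 0.16 ± 0.13 and -0.24 ± 0.09 and did not pass. Apoh passed without control 06 in FFPE 3 wk (-0.29, adjusted p = 0.048) and in the model of all 6 groups (-0.29, adjusted p = 0.017). Apoa4, at -0.46 ± 0.19 (adjusted p = 0.12), passed with the animal as a block (-0.54, adjusted p = 0.038, edgeR). The median of all genes was -0.34 in that fit, which left out control 03. Apoa4 passed also without control 04 in frozen (-0.64, adjusted p = 0.043).

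In furan livers 8 of 10 genes passed between FFPE 3 wk and frozen pieces, where 45.3% of 12599 genes did. Apoc1, Apoc2, Apoc3 and Apoa2 were higher by 7.40-, 6.22-, 5.69- and 3.10-fold. Apob, Apoa4, Apoe and Apoh were lower (log2 -1.14, -0.80, -0.66 and -0.32, adjusted p = 9.5e-06, 0.011, 0.00034 and 0.017, edgeR). The Apoh call was lost without furan 44 in frozen (-0.33, adjusted p = 0.053) and with thinned counts (-0.24, adjusted p = 0.059). Apoa1 and Apoa5 were at -0.13 ± 0.16 and -0.07 ± 0.12 and did not pass.

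Between the fixed pieces, 8 of the 10 genes were lower in FFPE 3 wk than in FFPE 18 h, in furan and in control livers. Of all genes 33% in furan and 10.6% in control livers passed, 17.5% and 6.28% being lower. The fall was shared by other liver products: of 16 hepatocyte-secreted proteins with no lipoprotein role, 15 were lower in furan and 13 in control livers. In furan livers Apoa1 fell to 0.367, Apoa2 to 0.380, Apoe to 0.397 and Apoc1 to 0.422 of the FFPE 18 h level; the log2 values of Apoh, Apoa4, Apoc3 and Apoc2 were -1.11, -1.05, -0.82 and -0.73. In control livers the log2 values ran from -1.25 for Apoa1 to -0.47 for Apoc2. Apoc2 in control livers passed narrowly (adjusted p = 0.047, edgeR) and did not pass without any 1 of the 4 FFPE 18 h libraries (control 02, 0.12; 03, 0.13; 04, 0.092; 06, 0.066) or without control 02, 03 or 04 in FFPE 3 wk (0.098, 0.099 and 0.079). The longest genes did not pass. Apob was at 0.25 ± 0.10 in furan and -0.20 ± 0.14 in control livers, and Apoa5 at -0.27 ± 0.10 and -0.02 ± 0.11, with adjusted p = 0.062, 0.44, 0.064 and 0.96.

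With the animal as a block, Apoa5 and Apob passed in furan livers (-0.27 and 0.25, adjusted p = 0.0040 and 0.0054, edgeR). Apoa5 passed there also without furan 42 in FFPE 18 h (-0.33, adjusted p = 0.039) or without furan 41 or 43 in FFPE 3 wk (-0.34 and -0.32, adjusted p = 0.036 each), and Apob without furan 43 (0.32, adjusted p = 0.0060). Apob passed in furan livers, higher in FFPE 3 wk, under 8 of 18 alternatives in all, and reached 0.58 with total counts (adjusted p = 0.00040). Total-count scaling shifted the median of all genes to 0.34 in furan and 0.37 in control livers. Genes higher and lower were then 3898 and 1126 in furan livers, beside 1971 and 2212, and 1082 and 126 in control livers, beside 523 and 769. Under it only Apoa1, Apoa2 and Apoe of the 10 genes passed in control livers, with Apob at 0.20 and Apoa5 at 0.36.

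Levels per kilobase of transcript keep the length-related difference between kinds of piece, so each order below holds for its own kind of piece only. On this scale Apoe had the highest level of the apolipoprotein mRNAs in frozen livers, at 9276 ± 599 in furan and 10957 ± 88.5 CPM per kb in control livers (SD, n = 3 each). In control frozen livers Apoa2 and Apoa1 came next at 4583 ± 370 and 3794 ± 559 CPM per kb, and their ranges overlapped. Then came Apoh, Apoc1 and Apoc3 at 1455, 1210 and 895 CPM per kb, Apoa5 and Apob at 716 and 622 with overlapping ranges, Apoa4 at 145 and Apoc2 at 77.6. In furan frozen livers the order was the same, with Apoc2 at 151 and Apoa4 at 204 CPM per kb. The ranges of Apoh and Apoc1, of Apoc1 and Apoc3 and of Apoa5 and Apob overlapped there, and those of Apoa2 and Apoa1 did not.

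In FFPE 18 h pieces the order differed: Apoa2 came first, at 34988 ± 2437 CPM per kb in furan and 33863 ± 843 in control livers (SD, n = 4 each), followed by Apoc1 at 16922 and 17270 and Apoe at 13612 and 15384. Apoc2, the lowest in frozen livers, stood above Apoa5, Apoa4 and Apob by its mean, at 1436 and 785 CPM per kb, though its range overlapped that of Apoa5 in control livers. Apob was at 186 CPM per kb in furan and 212 in control livers, its range overlapping that of Apoa4. In FFPE 3 wk pieces Apoa2, Apoc1, Apoe, Apoc3 and Apoa1 kept the first 5 places in both groups. The mean share of all counts taken by the 10 genes was 3.17% in furan and 3.45% in control frozen livers, 6.22% and 6.00% in FFPE 18 h, and 3.50% and 4.10% in FFPE 3 wk pieces. Apoa2, Apoc1, Apoc2 and Apoc3 together took 0.375% in furan and 0.346% in control frozen livers, against 3.10% and 2.76% in FFPE 18 h pieces. The control FFPE 18 h shares ran from 4.30% to 6.70% and from 1.93% to 3.08%, lowest in animal 06, the library with the most Rn45s. In TMM-scaled CPM the 10 genes summed to 63806 to 69203 in furan and 68404 to 69812 in control FFPE 18 h pieces.

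**Figure D4:**
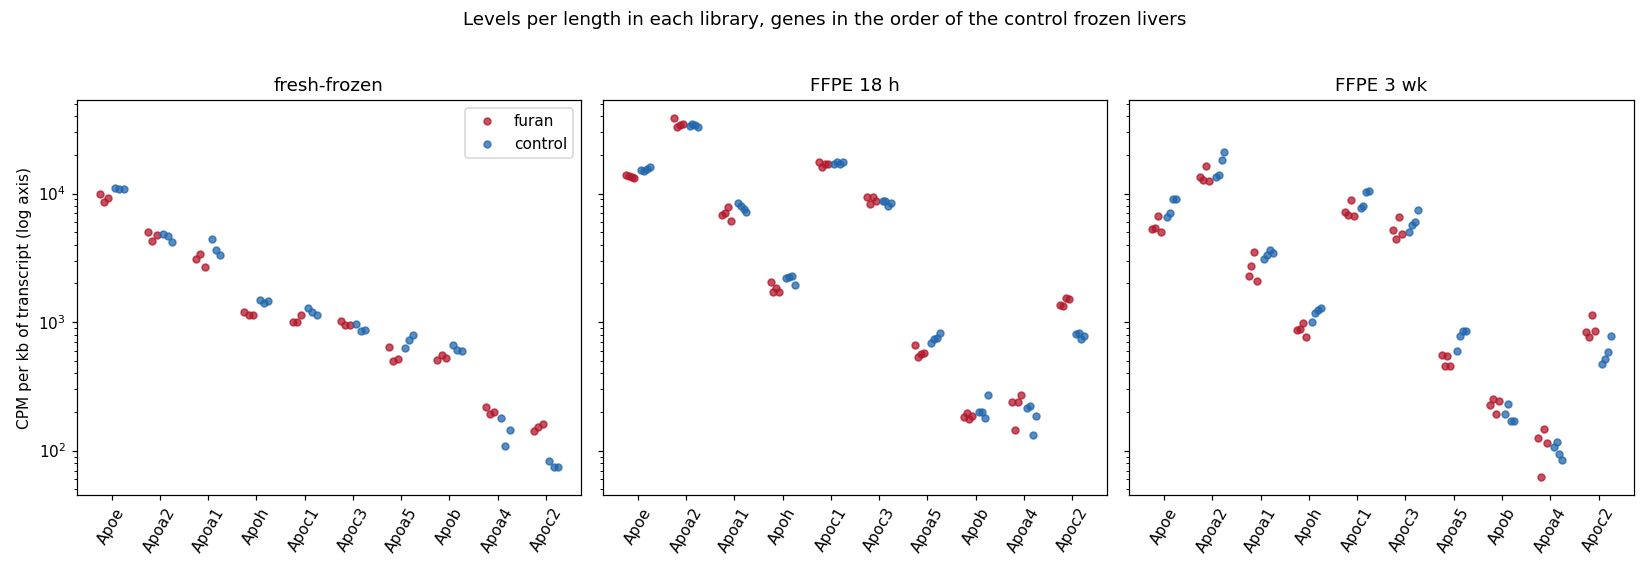
CPM per kilobase of transcript (vertical log axis) of each apolipoprotein mRNA in every library, furan left of control, with genes in the order of the control frozen livers. The steady decline of the fresh-frozen panel is broken in both FFPE panels, where Apoa2 stands highest and Apoc1, Apoc3 and Apoc2 stand above their frozen levels.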

How the data were processed

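The authors deposited 1 table of whole-number read counts per gene; counts were not normalized. Per the submitters' processing notes, CASAVA 1.8.2, STAR 2.3.0, featureCounts 1.4.4 and the mouse build mm9 were used. Per the labels' protocols, frozen RNA was extracted with the RNeasy Midi kit and FFPE RNA with the RNeasy FFPE kit, from 1 (18 h) or 2 (3 wk) sections of 10 µm, and polyadenylated RNA was sequenced with a kit that does not mark strand. Of 24 columns, 22 matched a sample here and 2 were not used.

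Each comparison was fitted on its own groups with edgeR 4.0.16 in R 4.3.3. Settings were filterByExpr, TMM scaling, the quasi-likelihood test and Benjamini-Hochberg adjustment over all genes tested, with a threshold of 0.05. The steps were checked on simulated data. Common dispersion, edgeR's estimate of spread between libraries, was 0.0643 to 0.336 in fits that held FFPE 3 wk libraries. Fits without such libraries had 0.0150 to 0.0284. The simulation did not take its spread from these fits. It therefore gives no rate of false or missed calls for the FFPE 3 wk comparisons. CPM were scaled by TMM over all 22 libraries. Levels per kilobase used GENCODE M21 transcript lengths, matched for 23639 of 24015 genes. Alternatives were DESeq2 1.42.0, other scalings and filters, a model of all 6 groups, thinned counts, the animal as a block and each library left out. Block fits kept only animals with every kind of piece compared. Furan 42 and control 03 were therefore left out of block fits that held frozen pieces. Since each liver was divided, animal numbers pair the pieces: deviations from group means over 9589 genes of at least 5 CPM correlated at 0.41 to 0.52 between frozen and FFPE 18 h pieces, 0.088 to 0.27 between frozen and FFPE 3 wk, and 0.014 to 0.29 between FFPE kinds.

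The text names all 10 members, up to 4 called genes of each list, the 3 genes most like Apoc2 and Apoc1, and genome neighbours. Members and lists were chosen with earlier results of these data known. Promoter windows came from RefSeq (GRCm38.p6). The receptor and uptake list is not reported here.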

Additional observations from a re-analysis of the deposited data

How the results depend on the processing

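Of 1602 results of the 10 genes under alternatives, 1489 kept direction and side of the threshold. Another 51 newly passed, 44 no longer passed and 18 changed sign. Among differences between furan responses, these counts hold only those of Apoc2 in both FFPE kinds and of Apob in FFPE 3 wk. Differences of the other genes were not counted, and some of them changed sign. That of Apoa1 in FFPE 3 wk minus frozen ran from -0.19 to 0.098 with a library left out. Apoc2 passed under every alternative in frozen and FFPE 18 h pieces. The number of the 10 genes passing the furan test in frozen livers, 2 as reported, was 5 with DESeq2, 3 with total counts (Apoa4 beside Apoc2 and Apoh), 2 with thinned counts (Apoa4 in place of Apoh), 1 in a model of all 6 groups and 1 to 2 with a library left out. In FFPE 18 h, 2 as reported, it was 1 with total counts, 1 in the model of all groups and 1 to 3 with a library left out. In FFPE 3 wk, 1 as reported, it was 4 with DESeq2, 0 with total counts, 3 without a filter, 4 in the model of all groups, 3 with robust dispersions, 2 with thinned counts and 0 to 2 with a library left out. Between FFPE 3 wk and 18 h in control livers it was 3 with total counts, against 8. The causes were not tested.

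Among the results counted, signs changed (log2), all for values that did not pass, as follows. With total counts, Apoc1 under furan in FFPE 18 h was 0.10, Apoa5 in FFPE 18 h over frozen -0.069 in furan and -0.11 in control livers, and Apoa4 there -0.0032. In FFPE 3 wk over 18 h, total counts gave 0.053 for Apoa5 in furan livers, and 0.36 for Apoa5 and 0.20 for Apob in control livers. Apoa5 there in control livers was 0.015 with DESeq2, with RLE scaling and with the 5 CPM filter, and 0.0088 thinned. With a library left out, Apoa5 there ran from -0.085 to 0.071 in control livers (above 0 without control 06 in FFPE 18 h, 0.012, or control 02 in FFPE 3 wk). Apoa2 under furan in frozen livers ran from -0.019 (without control 06) to 0.12, Apoc1 in FFPE 18 h from -0.045 to 0.0046 (without furan 42), Apoa1 in FFPE 3 wk over frozen control livers from -0.21 to 0.010 (without control 02 frozen), and Apoa5 in furan livers from -0.17 to 0.019 (without furan 41 frozen). The Apoc2 difference of responses in FFPE 18 h was 0.039 thinned.

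Genes passing over all genes moved by over 1.5 times as follows. In frozen livers 2162 became 138 in the model of all groups and 746 thinned; in FFPE 18 h 1077 became 268 with total counts, 225 and 682; in FFPE 3 wk 99 became 353 with DESeq2, 194 unfiltered and 2030 in the model of all groups. That model gave 5837 against 9785 (18 h over frozen, furan), 5769 against 8867 (control), 6028 against 3188 (3 wk over frozen, control) and 3477 against 1292 (3 wk over 18 h, control). With total counts the furan split of higher and lower genes was 1834 and 697 in frozen livers, beside 1132 and 1030, and 193 and 75 in FFPE 18 h, beside 503 and 574. The animal as a replicate block left the number of the 10 genes passing at 8 between FFPE kinds in control livers, and calls other than those given were not changed by it. The FFPE 3 wk libraries had the lowest total counts, and the effect of depth on the calls was tested by the thinned counts alone.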
